A study of Mus musculus with 6 samples.

Results

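The adult globin genes Hba-a1, Hba-a2, Hbb-bs and Hbb-bt, the haem synthesis gene Alas2 and the anion exchanger gene Slc4a1 were followed in 6 libraries of mouse liver RNA. They are 6 of the 54532 genes in the deposited table and were taken from it by symbol. They were chosen by their lower FPKM in HKO than in Flox in these same 6 libraries, so their difference between the groups is described here without a test. The HKO group (3 libraries) came from mice with a hepatocyte-specific knockout of G3bp1, which encodes an RNA-binding protein of stress granules. The Flox group (3 libraries) came from G3bp1-Flox litter controls. Mice of both groups were given a high-fat diet for 12 weeks from 6 weeks of age. The sources used here do not give the Cre driver, and liver cells other than hepatocytes keep G3bp1 in this design. Nothing in the labels ties a library to a separate animal, and the error behind each p-value is that among these libraries, part or all of which may be technical. The study asked how G3BP1 affects non-alcoholic steatohepatitis.

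Haemoglobin is a tetramer of paired alpha and beta chains, each holding a haem group. In the mouse reference used here the adult alpha chains come from Hba-a1 and Hba-a2 and the adult beta chains from Hbb-bs and Hbb-bt. ALAS2 is the X-linked, erythroid form of the enzyme that starts haem synthesis, and band 3, the product of Slc4a1, exchanges chloride for bicarbonate across the red cell membrane. The adult mouse makes red cells in bone marrow and spleen, while its liver holds blood and clears haemoglobin through macrophages and plasma carrier proteins.

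The globin genes come in near-identical pairs, and the stretches below are shown because they hold the single coding base by which each pair differs. Capitals mark that base, the strand is that of the gene, and the sequences are from GENCODE M21 on GRCm38.
Hba-a1, chr11:32284308-32284367: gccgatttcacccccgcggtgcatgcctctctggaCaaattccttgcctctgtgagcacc
Hba-a2, chr11:32297125-32297184: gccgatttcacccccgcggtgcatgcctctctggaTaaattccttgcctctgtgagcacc
Hbb-bs, chr7:103826668-103826727: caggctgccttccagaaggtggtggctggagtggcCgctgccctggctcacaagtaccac
Hbb-bt, chr7:103812659-103812718: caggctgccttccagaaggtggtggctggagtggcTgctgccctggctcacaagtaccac

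All 4 stretches lie in the third coding exon. Counted from 1 at the first base of the start codon, the alpha pair differs by C381T (Hba-a1 base first) in 426 coding bases and the beta pair by C417T (Hbb-bs base first) in 441, so each pair is 99.77% identical there. The untranslated ends differ more. Of all windows of 100 bases in the reference transcript, 56.5% in Hba-a1 and 74.5% in Hba-a2 also occur in the other alpha gene, and 62.6% in Hbb-bs and 54.8% in Hbb-bt also occur in the other beta gene. The sources used here do not say how reads with more than 1 placement were counted, so the split within a pair is uncertain and the sum over a pair is the firmer value. No window of that size in Alas2 or Slc4a1 occurred in another gene.

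The promoters are shown because the alpha copies nearly share theirs while the beta copies do not. RefSeq's table (GRCm38.p6) held 5 of the 6 members. Capitals mark TATAA, the core of the TATA box, in the 30 bases around it on the strand of the gene.
Hba-a1, chr11:32283633-32283662: ccttggagggcaTATAAgtgctacttgctg
Hba-a2, chr11:32296450-32296479: ccttggagggcaTATAAgtgctacttgctg
Hbb-bs, chr7:103827940-103827969: cagggcagagcaTATAAggtgaggtaggat
Hbb-bt, chr7:103813934-103813963: cagcattgggtaTATAAagctgagcagggt

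In the 250 bases before the start, the alpha promoters shared an unbroken run of 247 bases, and the beta promoters shared no run over 14. Searched on both strands were the motif TATAA, the motif CCAAT (the CCAAT box), the motif CACCC (the core read by erythroid KLF1) and the motif GATAA (the core read by GATA1). Each of the 4 globin promoters held all 4 of these motifs. Alas2 held 3 of them, with no match for CCAAT in this window. TATAA and GATAA can overlap by a few letters, and each was counted by itself. Of 32851 promoters in the table, 22.8% held the motif TATAA, 33.8% held CCAAT, 52.0% held CACCC and 22.6% held GATAA. A match of so few letters is common and shows no bound factor.

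Reads assigned to genes numbered 16499832 to 17954066 in HKO libraries and 15804115 to 16331199 in Flox libraries. G3bp1 stood at 4.46 ± 0.194 FPKM in HKO and 8.67 ± 0.37 FPKM in Flox (SD, n = 3 each), with every HKO library below every Flox library. FPKM are reads scaled by gene length and by a library size. That size was above the reads assigned in each HKO library, at 16690010 to 18539974. In Flox it was below them in Flox 1 and 2 (15368883 and 14850097) and above them in Flox 3 (16807261). Compared with scaling by assigned reads, it lowers HKO values against Flox 1 and 2, and voom used the same sizes. The G3bp1 difference of -0.83 (SE 0.088, log2 scale) had a Benjamini-Hochberg adjusted p of 0.11 (limma on log2(FPKM + 1)), and of 0.037 by voom on recovered reads. Albumin at 25430 to 33879 FPKM in HKO and 28200 to 30474 FPKM in Flox (both ranges over 3 libraries) was the most abundant of the hepatocyte markers.

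Haemoglobin transcripts were lower in the HKO libraries. Summed over the 4 globin genes, the level was 103, 219 and 165 FPKM in HKO 1, 2 and 3, against 277, 235 and 298 FPKM in Flox 1, 2 and 3. These sums rest on 1411 to 2837 reads in HKO and 2715 to 3883 reads in Flox. In FPKM all HKO libraries lay below all Flox libraries, but HKO 2 and Flox 2 were close, and that separation rests on the scaling. HKO 2 had 2837 globin reads of 16499832 assigned and Flox 2 had 2715 of 15893656, a share no lower in HKO 2. Rescaled to TPM, HKO 2 lay above Flox 2, and the log2 difference of the means was -0.57. HKO spread wider in FPKM, with a highest value 2.13 times the lowest against 1.27 times in Flox. The means were 162 ± 58.0 FPKM in HKO and 270.1 ± 32.1 FPKM in Flox (SD, n = 3 each), a level 40.0% lower in HKO. Without HKO 1, the lowest library, the log2 difference was -0.49 in place of -0.74. In bulk RNA, fewer red cells in the sample and less globin RNA per cell cannot be told apart.

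Alpha globin was the pair without overlap between the groups. Hba-a1 (ENSMUSG00000069919, chromosome 11, 32283511 to 32284465, plus strand) stood at 39.9, 80.9 and 62.7 FPKM in HKO 1, 2 and 3, against 116, 96.0 and 106 FPKM in Flox 1, 2 and 3. Every HKO library was below every Flox library. Its mean was 61.2 ± 20.5 FPKM in HKO and 106 ± 9.96 FPKM in Flox, a difference of -0.84 on the log2(FPKM + 1) scale. Hba-a2 (ENSMUSG00000069917, chromosome 11, 32296489 to 32297298, plus strand), the second alpha gene, stood at 6.76, 9.16 and 8.90 FPKM in HKO 1, 2 and 3, against 10.5, 14.1 and 17.3 FPKM in Flox 1, 2 and 3. The groups again did not overlap, with HKO 2 and Flox 1 the nearest pair. Its values rest on 80 to 110 reads in HKO and 108 to 194 reads in Flox. Its difference was -0.68 on the log2(FPKM + 1) scale and -0.75 by voom. The pair together averaged 69.4 ± 21.8 FPKM in HKO and 119.9 ± 8.67 FPKM in Flox, 42.1% lower in HKO.

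The beta genes were lower in mean as well, with some overlap. Hbb-bs (ENSMUSG00000052305, chromosome 7, 103826534 to 103828096, minus strand), the main beta gene by level, stood at 51.0, 121 and 87.1 FPKM in HKO 1, 2 and 3, against 139, 117 and 162 FPKM in Flox 1, 2 and 3. HKO 2 lay above Flox 2, so the groups overlapped. Its mean was 86.3 ± 35.0 FPKM in HKO and 139 ± 22.7 FPKM in Flox, a log2 difference of -0.75 that was -0.42 without HKO 1. Hbb-bt (ENSMUSG00000073940, chromosome 7, 103812524 to 103813996, minus strand), the other beta gene, stood at 4.89, 7.59 and 6.37 FPKM in HKO 1, 2 and 3, against 11.8, 8.43 and 12.8 FPKM in Flox 1, 2 and 3. Its groups did not overlap, and HKO 2 and Flox 2 were again the nearest pair. Counts were low, at 61 to 89 reads in HKO and 88 to 151 reads in Flox. The difference was -0.72 on the log2(FPKM + 1) scale and -0.82 by voom. The added 1 shrinks differences at low FPKM, so these values do not rank the members by size. The beta pair averaged 92.6 ± 36.3 FPKM in HKO and 150.2 ± 24.9 FPKM in Flox, 38.3% lower in HKO.

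Alas2 did not keep the pattern of the globins. Alas2 (ENSMUSG00000025270, chromosome X, 150547375 to 150570638, plus strand) stood at 33.4, 51.1 and 41.5 FPKM in HKO 1, 2 and 3, against 53.2, 59.4 and 35.3 FPKM in Flox 1, 2 and 3. Flox 3, the highest library for 3 of the 4 globin genes, was the second lowest for Alas2, and the groups overlapped. The mean was 42.0 ± 8.85 FPKM in HKO and 49.3 ± 12.5 FPKM in Flox, 14.8% lower in HKO, with a log2 difference of -0.21. That difference was -0.43 without Flox 3, -0.36 without HKO 2, -0.14 without Flox 1, -0.07 without Flox 2 and -0.06 without HKO 1, so single libraries set its size. Exons of Apex2 on the other strand overlap 311 of the 2403 exon bases of Alas2 (12.9%), and those of Mir3620 overlap 61, and no source used here states counting by strand, so reads there cannot be told apart. Apex2, a DNA repair nuclease gene, stood at 0.900 ± 0.176 FPKM in HKO and 0.849 ± 0.116 FPKM in Flox, far under the level of Alas2.

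Slc4a1 was close to undetected, which goes against its choice as a gene lower in HKO. Slc4a1 (ENSMUSG00000006574, chromosome 11, 102348824 to 102366203, minus strand) had 1, 1 and 0 reads in HKO 1, 2 and 3, against 1, 0 and 0 reads in Flox 1, 2 and 3. No difference can be read from so few reads. A count of 0 allows up to 3 reads, which is 0.0331 FPKM in HKO 3 and 0.0413 and 0.0365 FPKM in Flox 2 and Flox 3, for counting error only.

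**Figure D1:**
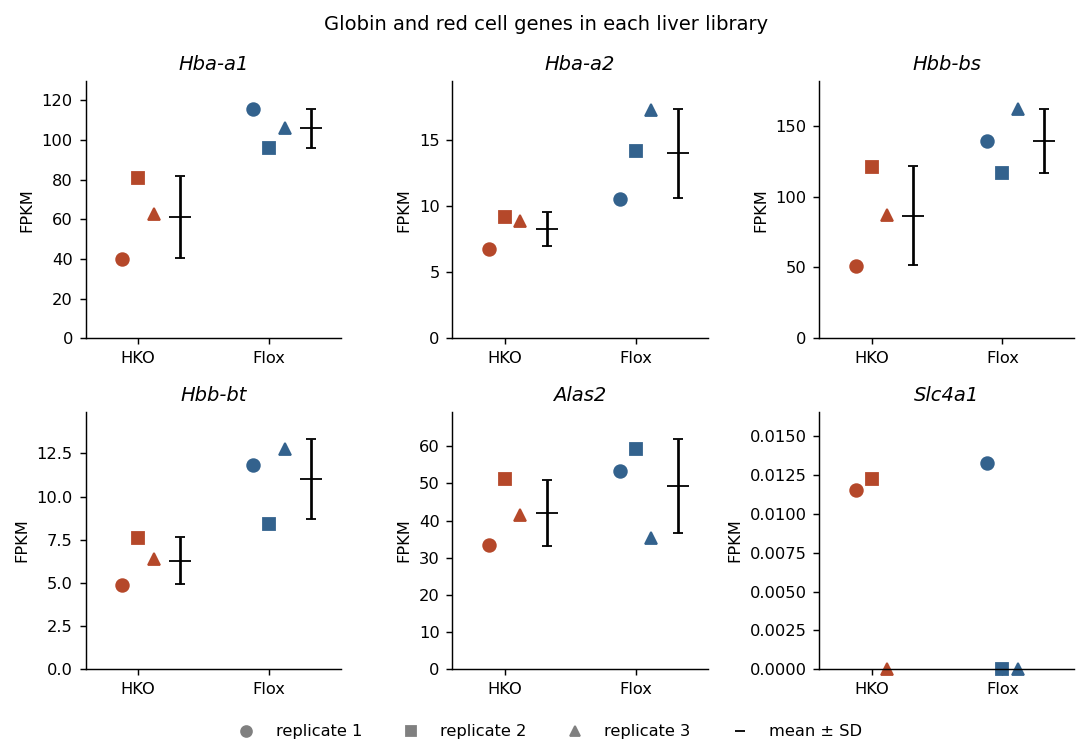
FPKM of each member (vertical axes from 0, 1 per gene) in the HKO and Flox libraries, with points for replicates and bars for the mean ± SD of 3 libraries, left out for Slc4a1. HKO lies below Flox without overlap in Hba-a1, Hba-a2 and Hbb-bt, overlaps it in Hbb-bs and Alas2, and Slc4a1 has at most 1 read.

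Of the 6 members, 5 passed the filter of 0.5 FPKM in 3 libraries, Slc4a1 being the exception, and 3 of the 6 had all HKO libraries below all Flox libraries. Over the 11856 genes tested, 7.21% had all HKO libraries below all Flox libraries and 6.06% had them above. All 5 members tested had a lower mean in HKO, as had 51.2% of all genes tested. The choice of members used this same contrast, so nothing is read from their count. The median log2 difference of the 5 was -0.72, beside -0.01 over all genes tested.

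By level per length the members kept 1 order in the means of both groups, with Hbb-bs highest, then Hba-a1, Alas2, Hba-a2, Hbb-bt and Slc4a1. Neighbours in that order often overlapped. Hbb-bs and Hba-a1 overlapped in HKO (51.0 to 121 and 39.9 to 80.9 FPKM) but not in Flox (117 to 162 and 96.0 to 116 FPKM). Hba-a1 and Alas2 likewise overlapped in HKO and not in Flox, where Alas2 reached 59.4 FPKM. Hba-a2 and Hbb-bt overlapped in both groups. Between Alas2 and Hba-a2 lay a gap in both groups, from 33.4 down to 9.16 FPKM in HKO and from 35.3 down to 17.3 FPKM in Flox.

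Ratios between the globin genes overlapped between the groups. The alpha sum was 0.835, 0.701 and 0.766 times the beta sum in HKO 1, 2 and 3, against 0.839, 0.880 and 0.706 times in Flox 1, 2 and 3. The whole range was 0.701 to 0.880, and neither group lay to 1 side. Hba-a1 was 5.90 to 8.83 times Hba-a2 in HKO and 6.13 to 11.0 times in Flox, and Hbb-bs was 10.4 to 15.9 times Hbb-bt in HKO and 11.7 to 13.8 times in Flox. Both within-pair ratios carry the uncertainty of near-identical copies. Alas2 varied more against the globins, at 0.326, 0.234 and 0.251 times their sum in HKO 1, 2 and 3 and 0.192, 0.253 and 0.118 times in Flox 1, 2 and 3. HKO 1 had the highest share of Alas2 to globin and Flox 3 the lowest, and the groups overlapped because of Flox 2.

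**Figure D2:**
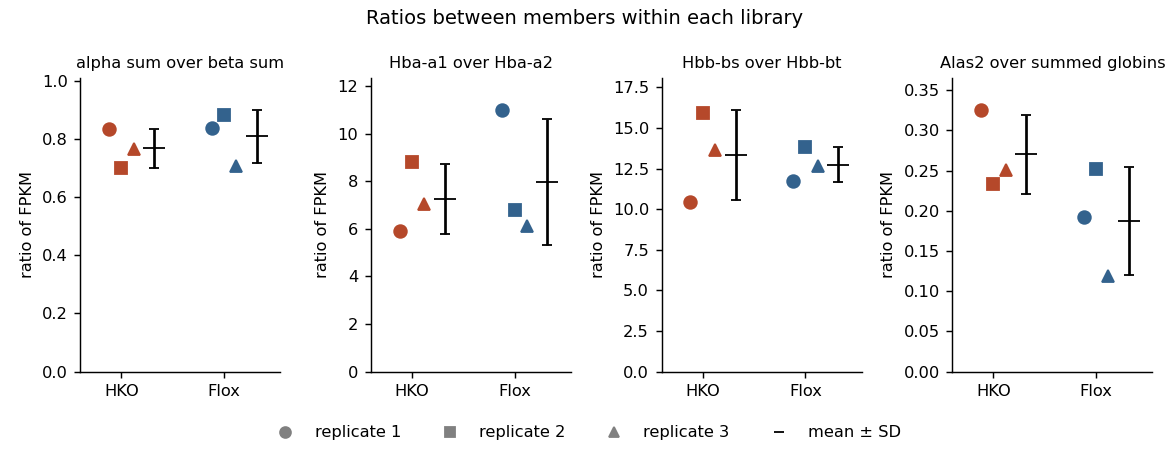
Ratios of FPKM (vertical axes from 0) between members in each HKO and Flox library, with points for replicates and bars for the mean ± SD of 3 libraries. The alpha to beta ratio stays between 0.701 and 0.880, while Alas2 over the summed globins runs between 0.118 and 0.326.

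Many genes of red cells were at or near 0 in these libraries, unlike the globins and Alas2. Among 31 listed genes of the red cell membrane and cytoplasm found in the table, 15 had no more than 3 reads in any library, and 3 of those were at 0 in all 6 libraries. The membrane skeleton gene Epb42 had 1 read in HKO 3 and 1 in Flox 1, and Hemgn, a nuclear protein gene of erythroid cells, had 1 read in HKO 1. The erythroid transcription factor gene Gata1 had 0 reads in all 6 libraries, and of the other globin genes listed 7 were at 0 in all libraries, the embryonic Hbb-y and Hba-x among them, both named after their values were seen. Cygb, the cytoglobin gene and the 1 tested gene of that list, stood at 3.97 ± 0.0844 FPKM in HKO and 3.95 ± 1.01 FPKM in Flox. Reads of Epb42, Hemgn and Slc4a1 were thus too few to set beside the globin difference.

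**Figure D3:**
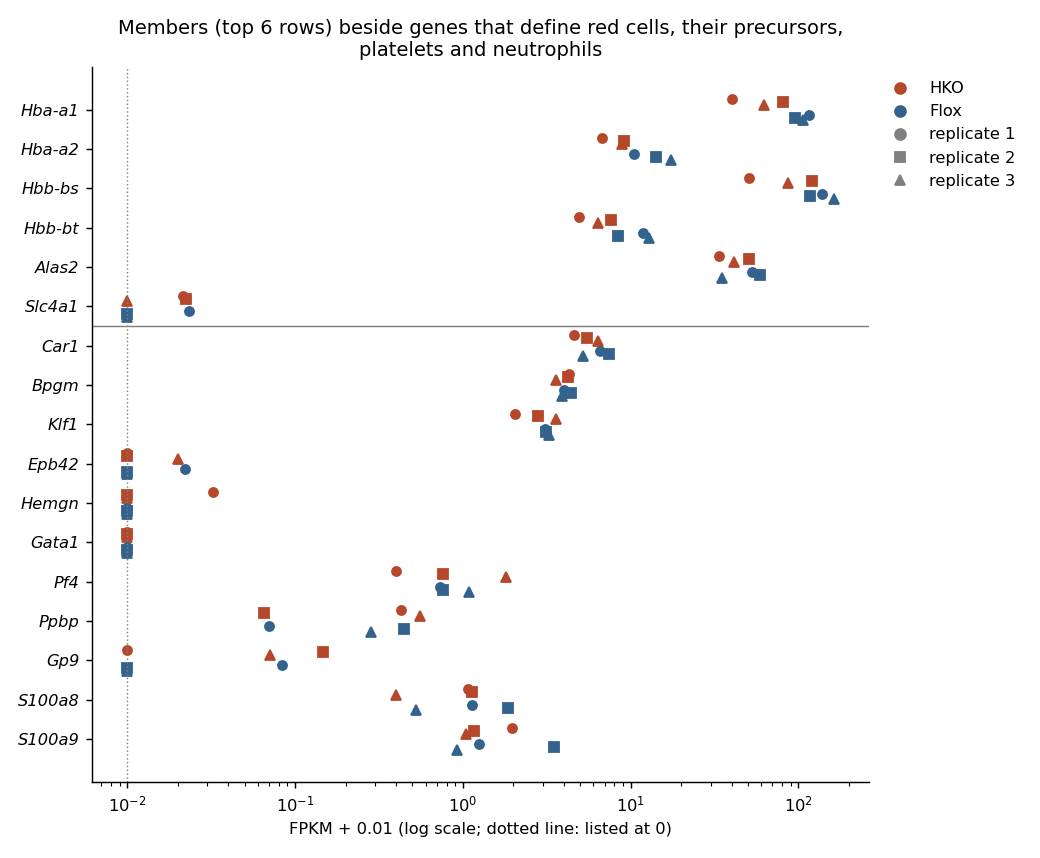
FPKM + 0.01 on a log axis for the 6 members (upper rows) and genes of red cells, precursors, platelets and neutrophils, with HKO points above Flox points in each row and 1 marker per replicate. The globins and Alas2 lie at 4.89 FPKM or higher, while Slc4a1, Epb42, Hemgn and Gata1 lie at or near 0.

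None of the 21 other erythroid genes that were tested passed over all genes. The targeted G3bp1 did not pass in limma either (adjusted p = 0.11), so 0 calls cannot show that these genes were unchanged. Limma called 0.00843% of 11856 genes, all lower in HKO, and voom called 0.0253%. An unadjusted p under 0.05 in limma was found for 7.62% of genes, with 3.08% higher and 4.55% lower in HKO. In the red cell list 13 genes were tested, of which 7 had a higher and 6 a lower mean in HKO, with a median log2 difference of 0.05. Limma and voom each called 0 of the 13, and 0 had an unadjusted p under 0.05. Prdx2, a peroxidase of red cells and other cells, stood at 36.9 ± 2.79 FPKM in HKO and 44.2 ± 5.12 FPKM in Flox. Aqp1, a water channel that endothelium also makes, stood at 27.1 ± 7.53 FPKM in HKO and 21.2 ± 5.22 FPKM in Flox. The mitophagy receptor gene Bnip3l stood at 18.8 ± 2.33 FPKM in HKO and 17.9 ± 0.783 FPKM in Flox. Those levels overlapped between the groups in all 3 genes, as did those of Slc25a38, Epb41 and Slc25a37, the next by level, whose log2 differences were 0.12, 0.11 and 0.19. Car1, a carbonic anhydrase, stood at 5.49 ± 0.894 FPKM in HKO and 6.39 ± 1.13 FPKM in Flox. The red cell enzyme gene Bpgm stood at 4.04 ± 0.398 FPKM in HKO and 4.08 ± 0.265 FPKM in Flox. Adjusted p-values in limma over the 13 tested genes of this list ran between 0.673 and 0.980.

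Genes listed for erythroid precursors did not pass either. Gata1 of this list had 0 reads in all 6 libraries, and the cell source of the tested genes cannot be told from these values. Of 7 tested genes 4 had a higher and 3 a lower mean in HKO (median log2 difference 0.09), and 0 passed in limma or voom. Zfpm1, a cofactor of GATA1 and the most expressed of the 7, stood at 26.1 ± 3.33 FPKM in HKO and 21.2 ± 3.05 FPKM in Flox (log2 difference 0.29). Ldb1, a scaffold of erythroid transcription complexes, stood at 6.54 ± 1.30 FPKM in HKO and 6.01 ± 0.295 FPKM in Flox. Both overlapped between the groups with a higher mean in HKO, while Klf1 and Tfrc overlapped with a lower one. Klf1, an erythroid transcription factor, stood at 2.03, 2.78 and 3.56 FPKM in HKO 1, 2 and 3, against 3.06, 3.12 and 3.27 FPKM in Flox 1, 2 and 3. The transferrin receptor gene Tfrc stood at 3.67 ± 1.01 FPKM in HKO and 4.55 ± 0.938 FPKM in Flox. Lmo2, an adaptor that endothelium shares with erythroid cells, was the 1 gene with an unadjusted p under 0.05, at 2.80 ± 0.170 FPKM in HKO and 2.13 ± 0.299 FPKM in Flox (adjusted p = 0.648 in limma).

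Haem synthesis beside Alas2 showed no called change. Of 8 enzymes tested 2 had a higher and 6 a lower mean in HKO, with a median log2 difference of -0.11, while limma and voom each called 0 and 0 had an unadjusted p under 0.05. Alas1, the form of the first enzyme that all tissues use, stood at 37.4, 11.4 and 81.4 FPKM in HKO 1, 2 and 3, against 20.9, 10.0 and 39.7 FPKM in Flox 1, 2 and 3. Alas2 therefore ran between 0.509 and 5.92 times Alas1 over the 6 libraries, with the groups overlapping. Alad, the second enzyme, stood at 88.9 ± 7.60 FPKM in HKO and 108 ± 15.2 FPKM in Flox. Fech, which inserts the iron, stood at 63.8 ± 3.57 FPKM in HKO and 61.0 ± 4.20 FPKM in Flox. Urod stood at 27.2 ± 1.77 FPKM in HKO and 32.4 ± 4.07 FPKM in Flox, and its groups did not overlap (adjusted p = 0.678 in limma).

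Genes that clear haemoglobin and haem gave 0 calls. Of 16 tested genes 9 had a higher and 7 a lower mean in HKO, with a median log2 difference of 0.02, while 0 passed in limma or voom and 1 had an unadjusted p under 0.05. Hp, the plasma carrier of free haemoglobin, stood at 3451, 1884 and 1839 FPKM in HKO 1, 2 and 3, against 2311, 2643 and 1648 FPKM in Flox 1, 2 and 3. Hpx, the carrier of free haem, stood at 5442, 3234 and 3320 FPKM in HKO 1, 2 and 3, against 3804, 3449 and 3027 FPKM in Flox 1, 2 and 3. HKO 1, the lowest library for all 4 globins and Alas2, was the highest for both carriers. It was also the highest for Lcn2, an acute-phase and neutrophil protein gene, at 30.9 FPKM, against 3.93 and 9.07 FPKM in the other HKO libraries and 2.20 to 10.1 FPKM in Flox, and the part of this in the globin difference was not tested. Cd163, the macrophage receptor for haemoglobin bound to its carrier, had that unadjusted p and is singled out with its values known. Its level was 2.49, 1.74 and 3.23 FPKM in HKO 1, 2 and 3, against 1.07, 1.16 and 1.11 FPKM in Flox 1, 2 and 3, without overlap (adjusted p = 0.580 in limma).

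Markers of other blood cells gave 0 calls, and their lists differed in direction. The 14 platelet genes summed to 3.82 to 5.57 FPKM in HKO and 3.52 to 4.18 FPKM in Flox, and 0 of the 2 tested passed (median log2 difference 0.17). Clec1b, listed as a platelet receptor gene, stood at 1.87 ± 0.48 FPKM in HKO and 1.33 ± 0.237 FPKM in Flox. It had 90 to 219 reads per library where the platelet gene Ppbp had 1 to 11. Its cell source, and so that of the median of this list, cannot be told from these values. Pf4, a platelet chemokine, had 5, 9 and 24 reads in HKO 1, 2 and 3, against 8, 8 and 13 reads in Flox 1, 2 and 3, and Gp9 had at most 2 reads in any library. The neutrophil genes S100a8 and S100a9 stood at 0.856 ± 0.406 and 1.38 ± 0.496 FPKM in HKO and at 1.16 ± 0.665 and 1.88 ± 1.40 FPKM in Flox. The 15 neutrophil genes summed to 6.69 to 35.2 FPKM in HKO and 4.93 to 16.7 FPKM in Flox, with Lcn2 of HKO 1 making most of the highest value. Of them 3 were tested and 0 passed, with a median log2 difference of -0.19 and 2 of the 3, S100a8 and S100a9, lower in mean in HKO like the globins. The part of these cells in the globin difference was not tested, and the defining Ly6g and Camp, named after their values were seen, were at 0 in all libraries. The 16 lymphocyte genes summed to 31.7 to 40.5 FPKM in HKO and 28.2 to 31.6 FPKM in Flox, without overlap, and 0 of 8 tested passed (1 at an unadjusted p under 0.05, median log2 difference 0.15). Igkc, an antibody light chain gene and the most expressed of them, stood at 22.4, 26.2 and 23.0 FPKM in HKO 1, 2 and 3, against 21.5, 19.7 and 20.5 FPKM in Flox 1, 2 and 3, which is above Hba-a2 and Hbb-bt in every library.

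Resident macrophage markers had the opposite direction to the globins in the group means. All 15 tested Kupffer cell genes had a higher mean in HKO, with a median log2 difference of 0.53, while 0 passed over all genes in limma or voom. An unadjusted limma p under 0.05 was found for 5 of them, beside 3.08% of all genes tested that were higher in HKO. Cd163, already counted in the clearance list, is among the 5, and Slc40a1 is in both lists too. The 15 genes summed to 403, 247 and 309 FPKM in HKO 1, 2 and 3, against 173, 189.9 and 302 FPKM in Flox 1, 2 and 3. Flox 3 overlapped the HKO range, and it was also the highest library for summed globin, so the opposite direction did not hold library by library. Cd5l, a secreted macrophage protein gene and the most expressed of the list, stood at 63.9 ± 21.1 FPKM in HKO and 38.9 ± 16.0 FPKM in Flox. C1qa, a complement gene, stood at 50.6 ± 17.8 FPKM in HKO and 40.5 ± 9.61 FPKM in Flox. Both genes overlapped between the groups. For C1qa, HKO 1 was at 70.9 FPKM, while HKO 2 and 3 (37.4 and 43.5 FPKM) lay within the Flox range. Whether these cells had a part in the globin difference was not tested. Of 12 sinusoidal endothelial genes 8 had a higher mean in HKO, and of 10 hepatocyte genes 5 had, with 0 called in each list. The most expressed endothelial gene, Clec4g, stood at 10.8 ± 0.244 FPKM in HKO and 11.6 ± 1.98 FPKM in Flox.

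**Figure D4:**
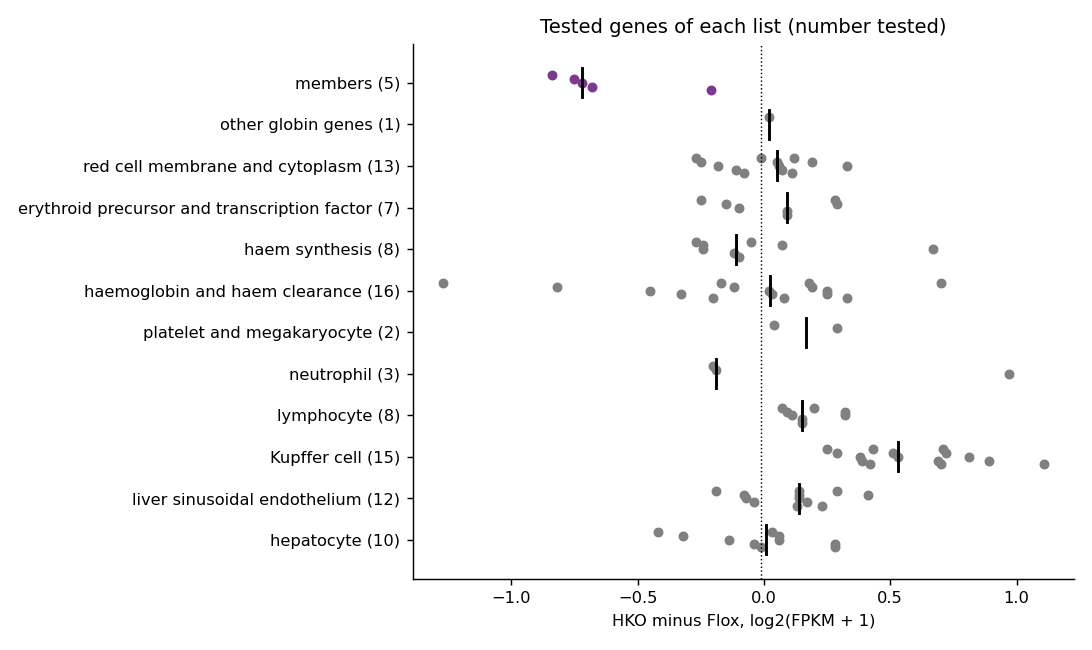
HKO minus Flox difference on the log2(FPKM + 1) scale (horizontal axis) for each tested gene of the lists, with a black bar at the median of each list and a dotted line at the median of all genes (-0.01). The members, chosen by this same contrast, lie between -0.84 and -0.21. The red cell, precursor, haem synthesis and clearance lists have medians between -0.11 and 0.09. Single genes spread wider, in the clearance list between -1.27 and 0.7, so the members do not stand apart from every listed gene.

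The genes most like the members in library profile were named by Pearson r over the 6 libraries between log2(FPKM + 1) and the mean centred value of the 6 members. Among 11856 tested genes less the members, the 8 with the highest r were Smad1 (0.992), Pacs2 (0.983), March7 (0.983), Dpy19l3 (0.981), Zbtb10 (0.975), Gm44787 (0.970), Mtm1 (0.968) and Hexdc (0.966). These are a description over 6 libraries that share the groups by which the members were chosen. Smad1, a transducer of bone morphogenetic protein signals, stood at 2.50 ± 0.125 FPKM in HKO and 2.75 ± 0.0526 FPKM in Flox. Its difference was much smaller than that of the globins. Of the members themselves, Hba-a1 had an r of 0.993 with the mean profile and Alas2 0.539. Each member is part of that profile, which raises its r, so these are not comparable with the r of the 8 genes.

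All 5 tested members kept a lower mean in HKO with each library left out and under each scaling tried. They were chosen by that direction in these same libraries, so nothing is read from the kept sign. With each library left out in turn, the log2 difference lay between -1.06 and -0.56 for Hba-a1, -0.85 and -0.52 for Hba-a2, -1.04 and -0.42 for Hbb-bs, -0.89 and -0.58 for Hbb-bt, and -0.43 and -0.06 for Alas2. The weakest values for Hbb-bs, Hba-a1, Hbb-bt and Alas2 came without HKO 1, and that for Hba-a2 without Flox 3. Rescaled to TPM, the median difference of all genes was 0.15, and relative to it Hba-a1 stood at -0.81, Hba-a2 at -0.69, Hbb-bs at -0.73, Hbb-bt at -0.75 and Alas2 at -0.19. Without that shift taken off, Alas2 stood at -0.04 (SE 0.194) under TPM and at -0.08 (SE 0.213) under quantile scaling. Under TPM the groups did not overlap in 1 member, Hba-a1, in place of 3, and under quantile scaling they did not overlap in 2, Hba-a2 and Hbb-bt, while Hba-a1 overlapped. No member was thus free of overlap in every setting. The share of all genes without overlap was not taken under these scalings.

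**Figure D5:**
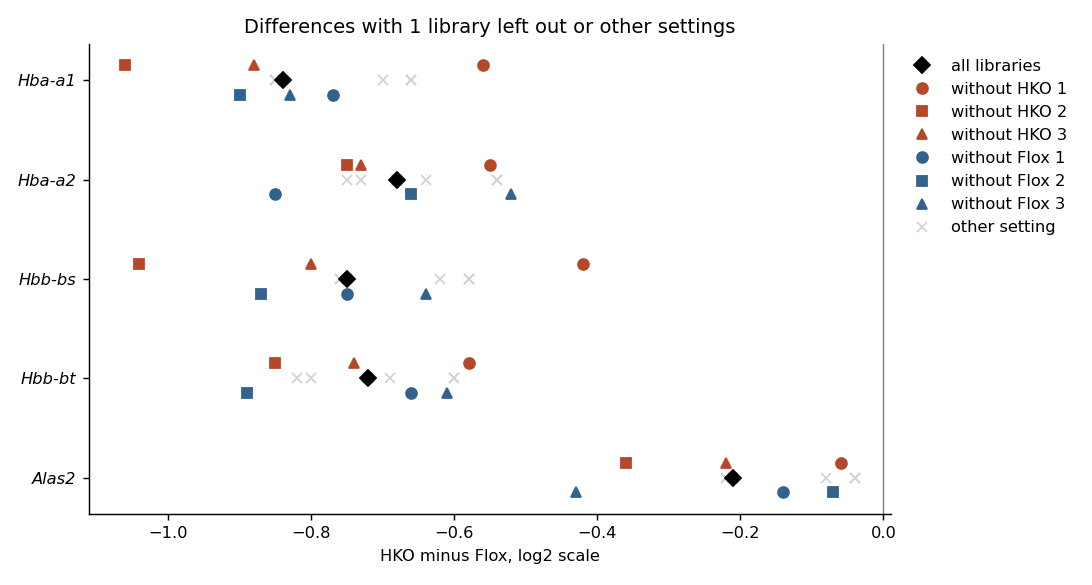
HKO minus Flox difference on the log2 scale (horizontal axis) for the 5 tested members with all libraries (diamond), with 1 library left out (coloured markers) and under the other settings (grey crosses). Every value lies below 0, the direction by which the members were chosen, and leaving out HKO 1 brings Hbb-bs to -0.42 and Alas2 to -0.06.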

How the data were processed

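The authors deposited 1 table of FPKM values per gene and library with a gene length in bases. The submitters' processing notes name GRCm38 and mm10 as builds, while the sources used here give no aligner or counter. Per the labels, total RNA was isolated on RNeasy Plus columns, and 1.3 µg entered a NEBNext Ultra RNA library. FPKM times gene length gave whole multiples of 1 step, and 100% of values above 0 lay within 0.02 of a whole read, which gave the read numbers. The 11856 genes that reached 0.5 FPKM in 3 or more libraries were compared with limma 3.58.1 under R 4.3.3 on log2(FPKM + 1), with trend and robust moderation, two-sided, with Benjamini-Hochberg adjustment and a threshold of 0.05. Run on those reads, voom called 3 genes. Group values are means ± SD of 3 libraries.

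The members and the 11 gene lists were chosen with earlier results of these data known. Named genes are the members, G3bp1, up to 6 tested genes of each list by mean FPKM, some defining markers and the 8 genes most like the members; exceptions are marked. Symbols of Ahsp, Hbb-b1 and Hbb-b2 were not matched. March7 is listed under a date in the table and was named by its identifier. Alternatives were pseudocount, filter, TPM, quantile scaling, voom, replicate block and leaving out each library. Some results on red cell genes are not reported here.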

Additional observations from a re-analysis of the deposited data

How the results depend on the processing

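Limma called 1 gene over all genes with all libraries. The count was 0 without the filter, 3 by voom and 0 once the replicate block was added, and with 1 library left out the count ran between 0 and 13. It was 13 without HKO 1, 1 without Flox 3 and 0 without each of the other 4 libraries. Same-numbered libraries deviated together at r = 0.02, 0.01 and 0.07, and not every library correlated best with its own number. The labels state no pairing, and such values over so few libraries cannot exclude one. The count of members without overlap was 1 under TPM, 1 under TPM with the globins left out of the sum, 2 under quantile scaling (where Hba-a1 overlapped), and 3 to 4 with 1 library left out. The share over all genes tested, 7.21%, was taken in the main setting only. Groups of 2 and 3 libraries also separate more easily than groups of 3 and 3, so nothing is read from these counts. The summed globin difference ran between -1.01 (without HKO 2) and -0.49 (without HKO 1). It moved by less than the spread between libraries (SD 0.409) in 10 of 10 settings. Leaving out 1 of 3 libraries can scarcely move a group mean by more than that spread, so nothing is read from this count. The lists of other erythroid, haem and clearance, and blood and liver cell genes had 0 calls in all 13 settings each. Depth limits Slc4a1, Epb42 and Hemgn, where no difference was detectable.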

Other observations

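The most expressed iron genes of the clearance list are given as values. Hamp, which encodes the iron hormone hepcidin, stood at 3223, 1122 and 1427 FPKM in HKO 1, 2 and 3, against 2757, 2212 and 2169 FPKM in Flox 1, 2 and 3 (log2 difference -0.45, adjusted p = 0.748 in limma). Trf, the plasma iron carrier, stood at 174, 61.5 and 48.3 FPKM in HKO 1, 2 and 3, against 132, 174 and 126 FPKM in Flox 1, 2 and 3 (log2 difference -0.82, adjusted p = 0.685 in limma). In both genes HKO 2 and HKO 3 lay below every Flox library and HKO 1 did not. The ferritin chain genes Fth1 and Ftl1 stood at 1613 ± 57.4 and 839 ± 89.7 FPKM in HKO and at 1758 ± 109.7 and 1056 ± 143 FPKM in Flox, with 0 of the 2 called.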
